A study of Mus musculus with 7 samples.

Results

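The 53 interferon and interleukin genes described here were taken by gene symbol from 21887 protein-coding genes, those that the mouse RefSeq table (GRCm38.p6, the build also called mm10) puts on a chromosome: Ifna with a number, Ifnb1, Ifne, Ifnk, Ifnz, Ifng, Ifnl2 and Ifnl3 (20 interferons), and Il with a number and at most 1 further letter other than r (33 interleukins). Receptors were not members. Each gene was placed by its midpoint against the 1437 lamin-associated domains (LADs) of the deposited list. The study profiled fibroblast lines, called iMEF in the labels, that were derived separately from embryos of one mouse colony. CUT&RUN, in which an antibody directs a tethered nuclease to cut out the DNA around its target, was run with 500000 cells a reaction for Lamin B1 (2 libraries), an IgG control (2), H3K9me2 (1 with each of a pair of antibodies) and H3K14ac (1). The LAD list is named wild type and merged; that it joins both Lamin B1 libraries is read from its name and is not stated in the labels. No treatment, age or sex is given in the labels, and the cells carried no stated stimulus of the interferon or interleukin pathways. The list holds positions only. Read depth is therefore unknown, a LAD has no strength and no replicate error, a merged list does not say in what share of cells a locus touches the lamina, and no test of a difference was possible. Counts are set beside the same count over all protein-coding genes. Fibroblast identity could not be checked from positions.

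Interferons and interleukins are the secreted signalling proteins of the immune system. Type I interferons are released when a cell senses viral nucleic acid and act through the receptor chains Ifnar1 and Ifnar2, type II interferon (Ifng) comes mainly from T and natural killer cells, and type III interferons act mostly on epithelia. Interleukins are grouped by structure and by shared receptor chains. Most of these genes are silent until a cell is stimulated, and many are expressed in a few immune cell types only, so that in resting fibroblasts most are held in reserve or not used at all. LADs are long stretches of chromatin in contact with the lamina, a protein mesh lining the inside of the nuclear envelope, and genes inside them are mostly silent.

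The promoters of 6 genes that carry the account are shown first: those of the LAD genes Ifnk, Ifng and Il22, and, for contrast, Ifnb1 and Ifna4 of the type I cluster outside LADs, and Il2, a T cell cytokine outside LADs. RefSeq start sites on GRCm38.p6 were listed for 43 of the 53 genes, matched by gene ID. Each window runs 5′ to 3′ from 250 bases before the start site to 50 after it (300 bases). Capitals mark TATAAA (the TATA box), a GAAA pair (GAAA, any 2 bases, GAAA; a core that interferon regulatory factors bind), a GGGA/TTCC pair (GGGA, any 2 bases, TTCC; of the kind NF-kappaB binds) and TGACTCA (an AP-1 site), searched on both strands. No matches overlapped in these 6 windows. The listed start of Il22 lies inside the span the gene table gives for it, so its whole window falls within that span and not upstream of the gene. The same holds for the windows of Il16, Il17f and Il19, which are counted below but not shown.
Ifnk (chr4:35151805-35152104, plus strand): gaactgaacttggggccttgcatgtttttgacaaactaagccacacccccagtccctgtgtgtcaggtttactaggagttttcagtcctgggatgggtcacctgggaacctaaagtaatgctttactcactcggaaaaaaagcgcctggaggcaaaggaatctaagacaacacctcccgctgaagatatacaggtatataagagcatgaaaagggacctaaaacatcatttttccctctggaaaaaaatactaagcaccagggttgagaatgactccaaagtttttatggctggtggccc
Ifng (chr10:118440796-118441095, plus strand): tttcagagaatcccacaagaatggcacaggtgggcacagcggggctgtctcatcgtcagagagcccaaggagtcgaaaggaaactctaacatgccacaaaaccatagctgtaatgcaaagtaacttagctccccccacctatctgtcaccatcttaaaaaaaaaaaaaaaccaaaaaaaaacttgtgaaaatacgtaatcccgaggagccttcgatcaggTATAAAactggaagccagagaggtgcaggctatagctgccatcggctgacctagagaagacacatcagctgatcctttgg
Il22 (chr10:118204714-118205013, plus strand): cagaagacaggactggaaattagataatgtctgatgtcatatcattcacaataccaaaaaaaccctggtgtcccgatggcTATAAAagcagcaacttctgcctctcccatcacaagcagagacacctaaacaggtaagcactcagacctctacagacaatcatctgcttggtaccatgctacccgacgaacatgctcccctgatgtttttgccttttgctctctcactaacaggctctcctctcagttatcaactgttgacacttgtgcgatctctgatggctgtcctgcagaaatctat
Ifnb1 (chr4:88522745-88523044, minus strand): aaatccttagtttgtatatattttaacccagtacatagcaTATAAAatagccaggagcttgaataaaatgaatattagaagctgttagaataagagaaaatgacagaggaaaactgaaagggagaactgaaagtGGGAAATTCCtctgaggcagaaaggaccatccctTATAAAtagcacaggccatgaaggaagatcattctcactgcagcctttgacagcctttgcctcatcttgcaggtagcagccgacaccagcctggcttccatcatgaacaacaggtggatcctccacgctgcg
Ifna4 (chr4:88841566-88841865, plus strand): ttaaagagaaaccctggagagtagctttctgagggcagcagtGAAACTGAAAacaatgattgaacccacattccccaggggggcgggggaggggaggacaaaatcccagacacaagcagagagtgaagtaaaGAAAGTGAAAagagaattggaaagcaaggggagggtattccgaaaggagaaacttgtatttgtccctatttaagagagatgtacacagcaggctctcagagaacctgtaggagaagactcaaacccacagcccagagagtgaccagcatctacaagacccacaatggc
Il2 (chr3:37125905-37126204, minus strand): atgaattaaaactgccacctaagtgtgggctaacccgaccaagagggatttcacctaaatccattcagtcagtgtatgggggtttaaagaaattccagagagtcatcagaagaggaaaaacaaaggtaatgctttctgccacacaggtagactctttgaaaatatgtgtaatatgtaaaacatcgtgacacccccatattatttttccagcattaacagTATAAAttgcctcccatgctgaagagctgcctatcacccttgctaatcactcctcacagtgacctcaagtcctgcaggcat

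Of the 53 genes, 4 had their midpoint in a LAD: Ifnk, Ifng, Il22 and Il15, or 7.55% of the set. Over all protein-coding genes the share was 23.8%, and without olfactory and vomeronasal receptor genes it was 19.1%. Of the interferons 2 of 20 lay in LADs, and of the interleukins 2 of 33. The upper 95% Wilson limits (counting error only) were 30.1% and 19.6%, the first above 23.8% and the second above 19.1%. Of the 20 interferons, 16 lie in 1 gap. Neighbouring members share a LAD or a gap between LADs and are not independent. With members under 500 kb from the next one joined, there were 28 loci on 14 chromosomes, of which 3 lay in LADs. No limit was computed for this count of loci, so whether it lies below the share of all genes was not tested. In each of the 8 loci with several members, all members fell in the same LAD or the same gap, so no locus was divided by a border. The families described below have 1 to 17 members each. For those of 4, 6 and 7 members with none in a LAD, the upper 95% Wilson limits (counting error only) were 49.0%, 39.0% and 35.4%, all above 23.8%, so these counts do not set a family apart. No border lay inside a member gene, and 3.36% of all protein-coding genes held one; the members are shorter, with a median of 3.59 kb against 17.2 kb. The 4 LAD genes kept their place whether the whole gene or any overlap was counted, with LADs of at least 500 kb only, and with borders moved by 25 kb either way.

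**Figure D1:**
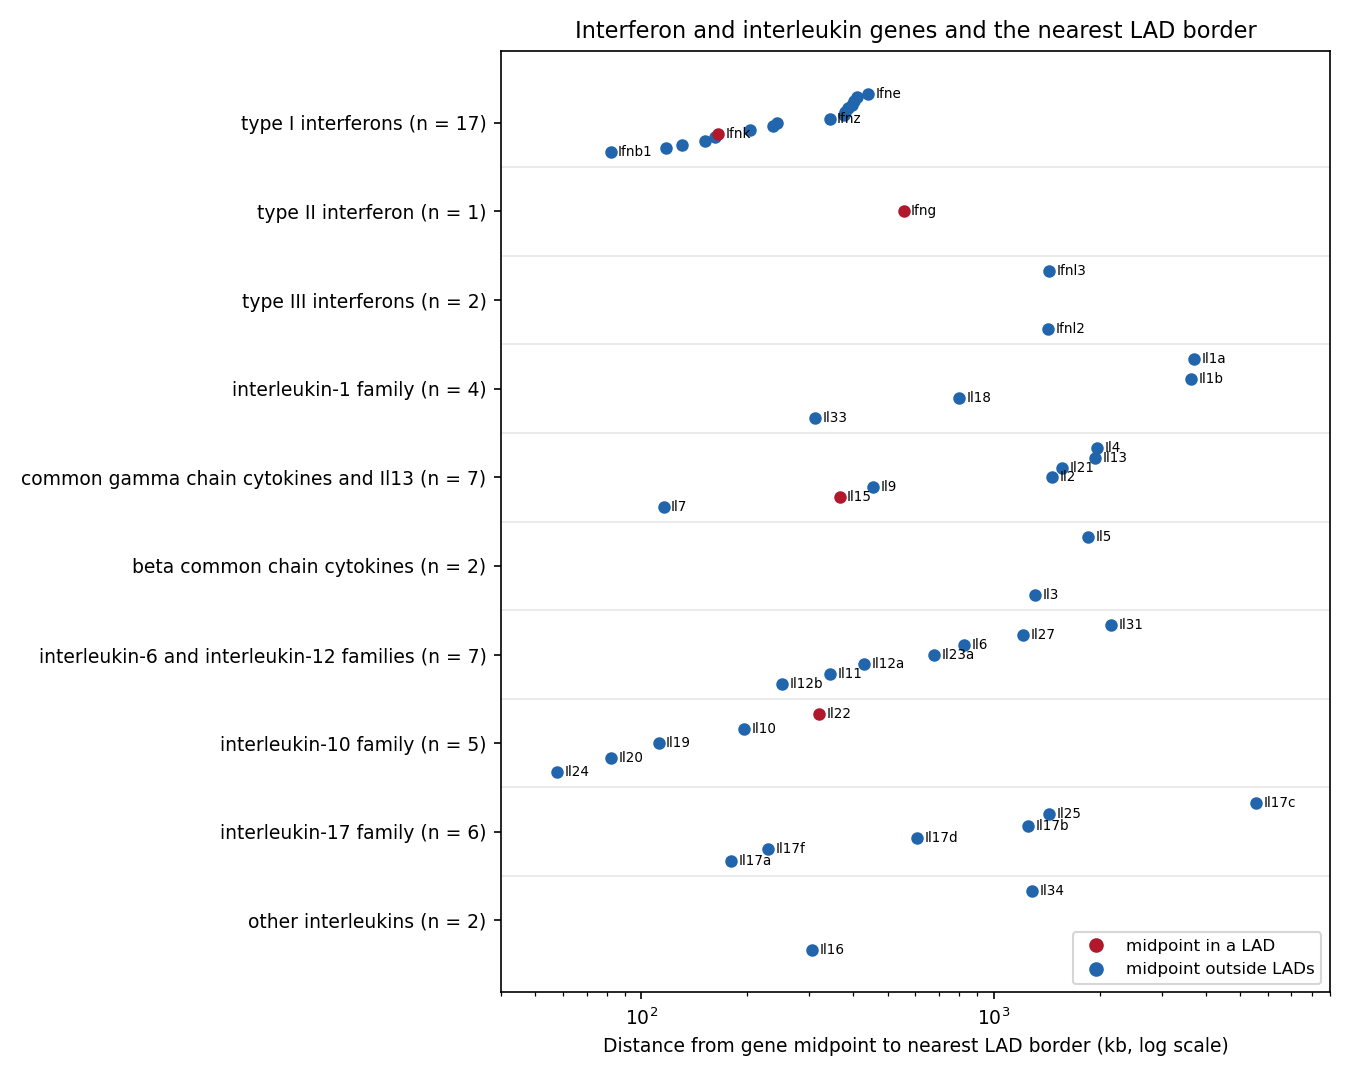
Distance in kb (log scale) from the midpoint of each of the 53 genes to the nearest LAD border, by family. Red points are the 4 genes in LADs and blue points the 49 outside; unlabelled points in the top row are the 13 Ifna genes, and Il24 is the nearest to a border at 57.7 kb and Il17c the farthest at 5565 kb.

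The type I interferons were the largest group, with 17 genes, and 16 of them formed 1 cluster of 358 kb on chromosome 4 (88522025 to 88880201). All 16 lay in a single gap between LADs, 1290 kb long (88440644 to 89730639). Ifnb1, the interferon that most cell types make first upon infection, stood at the low-coordinate end of the cluster, 81.8 kb from the border. Ifne, the interferon of the female reproductive tract, stood at the other end, 439 kb from the same border and 851 kb from the opposite one. Between them were the 13 Ifna genes, at 117 to 410 kb from the border, and Ifnz (342 kb), an interferon known as limitin. The genes are short, with a median of 573 bp over the Ifna genes. The gap held 37 protein-coding genes, or 28.7 per Mb. Besides the 16 members these included Ifnab, Klhl9, Pramel32, Mtap, Cdkn2a, Cdkn2b, Dmrta1 and a run of predicted genes with Gm symbols.

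The cluster was off centre in its gap, next to the low-coordinate border. The LAD on that side was short, at 60 kb, whereas the LAD beyond the opposite border spanned 3.08 Mb. With LADs under 100 kb left out, the nearest border to Ifnb1 moved from 81.8 to 229 kb, and that to Ifne from 439 to 587 kb. All LAD coverage within 500 kb of Ifne (6.0%) came from this short domain, as it did for Ifna1, Ifna4, Ifna5, Ifna6, Ifna7 and Ifna11. Ifna genes are near copies of each other. Promoter windows of the 12 Ifna genes with a listed start site were 68.5% to 98.1% identical over their aligned bases (66 pairs with 156 to 299 bases aligned, median 78.2%). Reads from such copies may not be assigned to 1 gene. How the authors treated them is not given in the sources used here, and its part in the call of this gap was not tested.

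Ifnk, the type I interferon of keratinocytes, was the exception. It lies on the same chromosome but far from the cluster (35152055 to 35154019) and fell in a LAD of 5.12 Mb (34988313 to 40113296). Its midpoint was 165 kb from the nearest border and 4960 kb from the other, so the gene sat at the edge of a long domain. This LAD held 5 protein-coding genes, or 0.976 per Mb, among them the neuronal gene Lingo2. The span of Ifnk overlaps that of Mob3b, whose low-coordinate end reached across the border. Within 500 kb of Ifnk, 66.5% of bases lay in LADs.

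Ifng, the type II interferon and the main activator of macrophages, lay deep in a LAD of 2.18 Mb on chromosome 10 (117888208 to 120068200). Its midpoint was 555 kb from the nearest border, and 100% of bases within 500 kb were covered. Il22, an interleukin-10 relative that acts on epithelia, lay in the same LAD at 319 kb from the border, with coverage of 81.9%. The domain held 7 protein-coding genes (3.21 per Mb): Mdm1, Il22, its near copy Iltifb, Ifng, Dyrk2, Cand1 and Grip1. Iltifb, whose synonyms in the table include Il22b, was missed by the symbol rule and lay at 404 kb from the border. The long non-coding RNA gene Ifngas1, next to Ifng, was inside too, at 641 kb. Il22 and Iltifb are near copies, though their identity was not measured here. The limit on reads given for the Ifna genes may apply to them too.

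The type III interferons Ifnl2 and Ifnl3 neighbour each other on chromosome 7 in a gap of 4.14 Mb with 161 protein-coding genes (38.9 per Mb). They were 1427 and 1441 kb from the nearest border, and no LAD base lay within 500 kb of either.

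**Figure D2:**
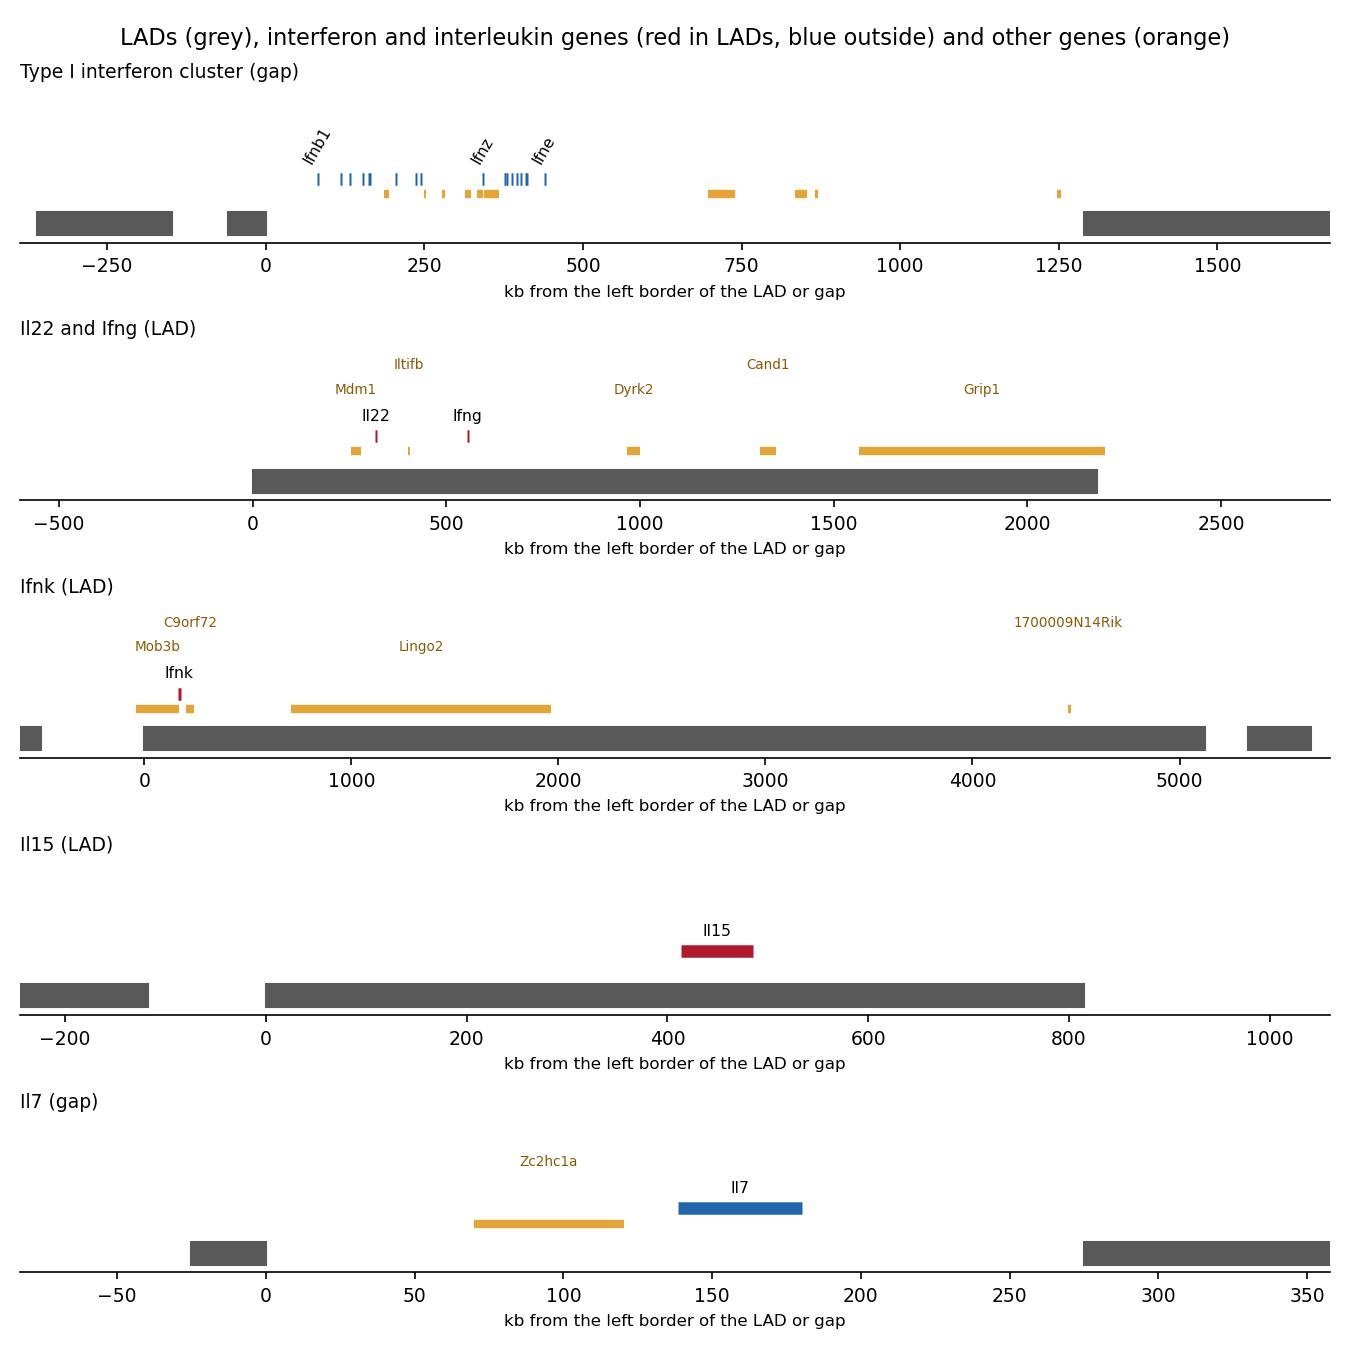
Maps of 5 loci, with positions in kb from the left border of the LAD or gap that holds the genes. Grey bars are all LADs in view, red marks are interferon or interleukin genes in LADs, blue marks are those outside, and orange marks are the other protein-coding genes whose midpoint lies in that LAD or gap; the type I cluster starts with Ifnb1, 81.8 kb from a LAD of 60 kb, while Ifng and Il22 lie inside their LAD.

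Among the cytokines that signal through the common gamma chain, with Il13 added as a close relative of Il4, 1 of 7 was in a LAD. Il15, which sustains natural killer and memory T cells, was the only protein-coding gene with its midpoint in a LAD of 815 kb on chromosome 8 (81917949 to 82732945). It lay near the middle, 366 kb from the nearer border, with 81.5% coverage within 500 kb. Il7, which lymphocyte precursors need, lay in the shortest gap that held a member. It shared this gap of 275 kb on chromosome 3 (7433587 to 7708586) with Zc2hc1a, between LADs of 25 and 262 kb, and stood 116 kb from a border with 49.3% coverage. Joining LADs 300 kb or less apart placed Il7 in a LAD, and no other member changed place then. None of the 53 changed place under the other settings for overlap, LAD length, joining and borders, and none of the 43 with a listed start site when placed by it; the other 10, among them Il7 and Il15, were not placed that way. Il2, the T cell growth factor, and Il21 lay far from any LAD in a gap of 3.27 Mb, at 1462 and 1567 kb from the border. Il9 was 455 kb from a border.

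The type 2 cytokines Il4, Il13 and Il5 stood together on chromosome 11 with Il3 further along. All 4 lay in a gap of 6.08 Mb (49493017 to 55577997) that held 104 protein-coding genes. Il4, which directs B and T helper cells, was 1962 kb from the nearest border, Il13 1945 kb, Il5, the eosinophil growth factor, 1855 kb, and Il3 1312 kb. No LAD base lay within 500 kb of any of them.

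None of the 4 interleukin-1 family members was in a LAD. Il1a and Il1b, the inflammatory cytokines that fibroblasts and macrophages can make, were among the 5 members farthest from a border, at 3702 and 3639 kb in a gap of 7.97 Mb on chromosome 2. Il18 was 798 kb and Il33, an alarmin of stromal cells, 311 kb from a border. Relatives that keep older symbols, and were not members, were placed differently. Il1f8, Il1f9 and Il1f6, which encode interleukin-36 cytokines of epithelia, lay in a LAD of 1027 kb elsewhere on chromosome 2 (23242338 to 24269834), 113, 79.8 and 49.3 kb from its border. Their neighbours Il1f5, Il1f10 and the receptor antagonist Il1rn lay just outside, at 9.86, 22.8 and 74.3 kb, so a border ran between Il1f6 and Il1f5. With these 6 genes, Ifnab and Iltifb added, 8 of 61 genes (13.1%) were in LADs, against 4 of 53 by the symbol rule. The antagonist gene Il18bp and the predicted Gm genes of the type I gap, all outside LADs, were not added. The share thus depends on which relatives are chosen.

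All 7 members of the interleukin-6 and interleukin-12 families were outside LADs. Il6, which fibroblasts secrete in inflammation, was 824 kb from the nearest border in a gap of 9.72 Mb with 145 protein-coding genes. Il11, which acts in fibrosis, stood in a short gap of 715 kb on chromosome 7 that held 40 protein-coding genes, or 55.9 per Mb, and was 342 kb from a border. Of the subunit genes, Il12b was nearest at 251 kb, followed by Il12a at 429 kb and Il23a at 676 kb. Il27 was at 1215 kb and Il31, an itch cytokine of T cells, at 2161 kb. The partners Il12a and Il12b, whose products join to form interleukin-12, were both in no LAD. Both distances lie between the first quartile (199 kb) and the median (626 kb) of all protein-coding genes.

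The interleukin-10 family divided by locus. Il24, Il20, Il19 and Il10 span 143 kb on chromosome 1, in a gap of 6.01 Mb whose border lay near Il24. Il24 was 57.7 kb from it, Il20 82.1 kb, Il19 112 kb and Il10, which restrains inflammation, 195 kb. The LAD on that side measured 17.5 kb. Without LADs under 100 kb, the distances became 205 kb for Il24 and 343 kb for Il10. Il22, the fifth member, lay in the LAD of Ifng described above. Only Il24, Il20 and Ifnb1 were outside LADs within 100 kb of a border, as were 9.35% of all protein-coding genes. All 3 faced a LAD under 100 kb, and with such LADs left out none was that near, while the share of all protein-coding genes was then 8.38%.

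The interleukin-17 family had 6 members and none in a LAD. Il17a and Il17f, the cytokines of T helper 17 cells, lay in a gap of 655 kb on chromosome 1 between LADs of 3.82 and 1.92 Mb, 180 and 229 kb from a border, with 34.5% coverage each. Il17c was the member farthest from a LAD, at 5565 kb in a gap of 11.7 Mb on chromosome 8. Il17d, Il17b and Il25 were 607, 1254 and 1436 kb from a border. Of the other interleukins, Il16 was at 305 kb and Il34, a ligand of the macrophage growth factor receptor, at 1284 kb. In all, 16 members outside LADs were over 1 Mb from a border (30.2% of 53), as were 33% of all protein-coding genes.

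The genes of the pathways downstream were placed in the same way. Of 44 receptor genes, 4 were in LADs (9.09%): Il7r, Il5ra, Il3ra and Il13ra2, and a border ran through Il5ra. Il7 and Il7r, ligand and receptor, therefore differed in place, with Il7r 329 kb inside a LAD of 1207 kb. None of the interferon receptor genes Ifnar1, Ifnar2, Ifngr1, Ifngr2 and Ifnlr1 was in a LAD. Ifnar1, Ifnar2 and Ifngr2 lie in the same gap and are not independent. Of 38 signalling genes 2 were, among them Tlr7, a sensor of viral RNA, and of 22 interferon response genes 1 (Ifi44). Together this made 7 of 104 genes, or 6.73%, against 23.8% of all protein-coding genes. The count was 12 with LADs 250 kb or less apart joined, and 4 of 87 by start site. The shares of all protein-coding genes were then 27.3% and 23.9%.

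**Figure D3:**
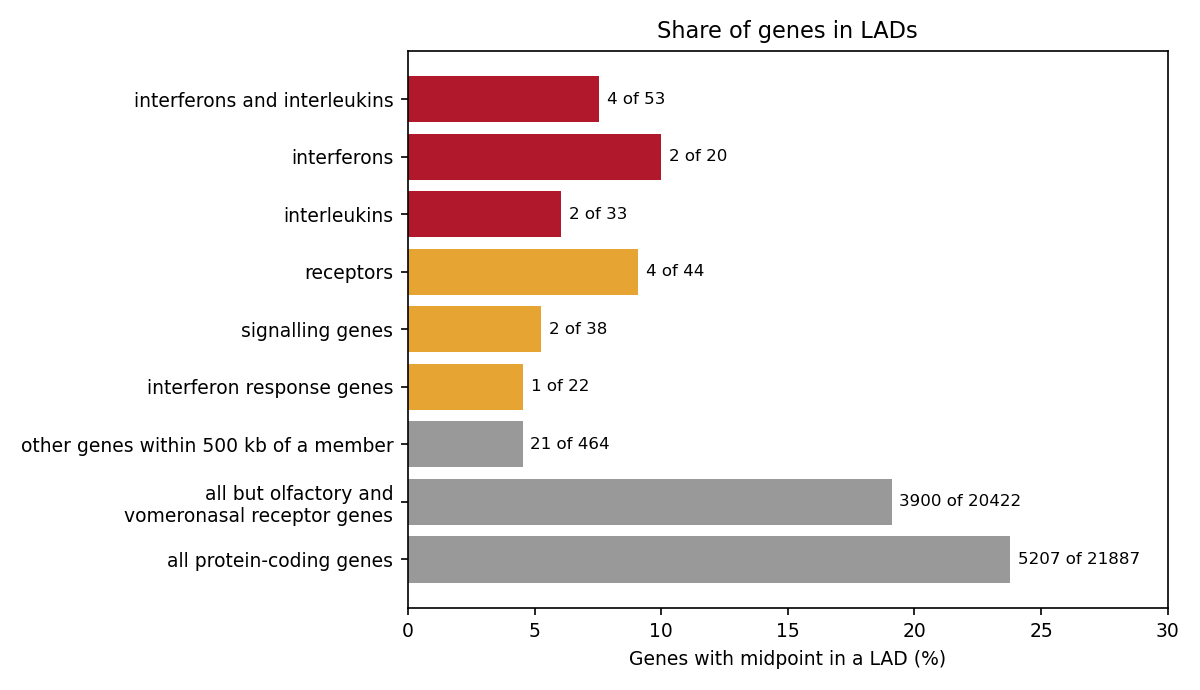
Percentage of genes with the midpoint in a LAD, with counts beside the bars. The members (red; 7.55% together, 10% of interferons and 6.06% of interleukins) and the pathway genes (orange, 4.55% to 9.09%) sit below all protein-coding genes (23.8%); grey bars are the comparison sets, of which the other genes within 500 kb of a member are at 4.53%.

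The 23 gaps that held the members outside LADs had a median length of 3.27 Mb, and 20 exceeded 1 Mb. Of the 49 members outside LADs, 91.8% were in a gap over 1 Mb, against 84.3% of all protein-coding genes outside LADs with a LAD on both sides. Counted per gene, the median gap was shorter for members (2.13 Mb) than for all genes outside LADs (3.96 Mb). The 16 clustered type I genes count with the same gap of 1.29 Mb each. The exceptions to the 1 Mb length were Il7, Il11, Il17a and Il17f. Over genes in and outside LADs alike, the median distance from a border was 395 kb for the members, 581 kb for the members without the Ifna genes and 626 kb for all protein-coding genes.

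The surroundings of the members differed by class. The median number of other protein-coding genes within 500 kb each side was 35 for the interferons, most of them in the type I cluster, and 14 for the interleukins, against 15 over all protein-coding genes. For a clustered gene this number counts the other cluster members, Ifnab and the predicted Gm genes of the same gap. It is thus in large part the cluster counting itself. Median LAD coverage in that window was 12% for interferons, 0% for interleukins and 6.57% over all genes. The median over all members, 6.0%, was 0% with LADs under 100 kb left out, 0% in a window of 250 kb and 21.1% in one of 1 Mb, and the LAD of 60 kb beside the type I cluster lies in the window of all 16 clustered genes. No LAD base lay in the window of 20 members (37.7%), as for 47.2% of all genes. Coverage over 50% was found for the 4 LAD genes and no other member, where 27.6% of all genes exceeded it. The other 464 protein-coding genes within 500 kb of a member were in LADs in 21 cases (4.53%), so genes beside the members were also seldom in LADs.

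By local density, 2 of the 4 members with fewer than 5 other genes in the window were in LADs (Il15 and Ifng, but not Il7 and Il12b). This compares with 47.1% of the 2715 protein-coding genes of that density. With 5 to 15 neighbours it was 2 of 17 members, against 21.5% of all genes, and with more than 15 neighbours 0 of 32, against 19.6%. The 16 clustered type I genes make up much of this last group and count as 1 locus. Their neighbours are in large part each other, Ifnab and the predicted Gm genes.

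**Figure D4:**
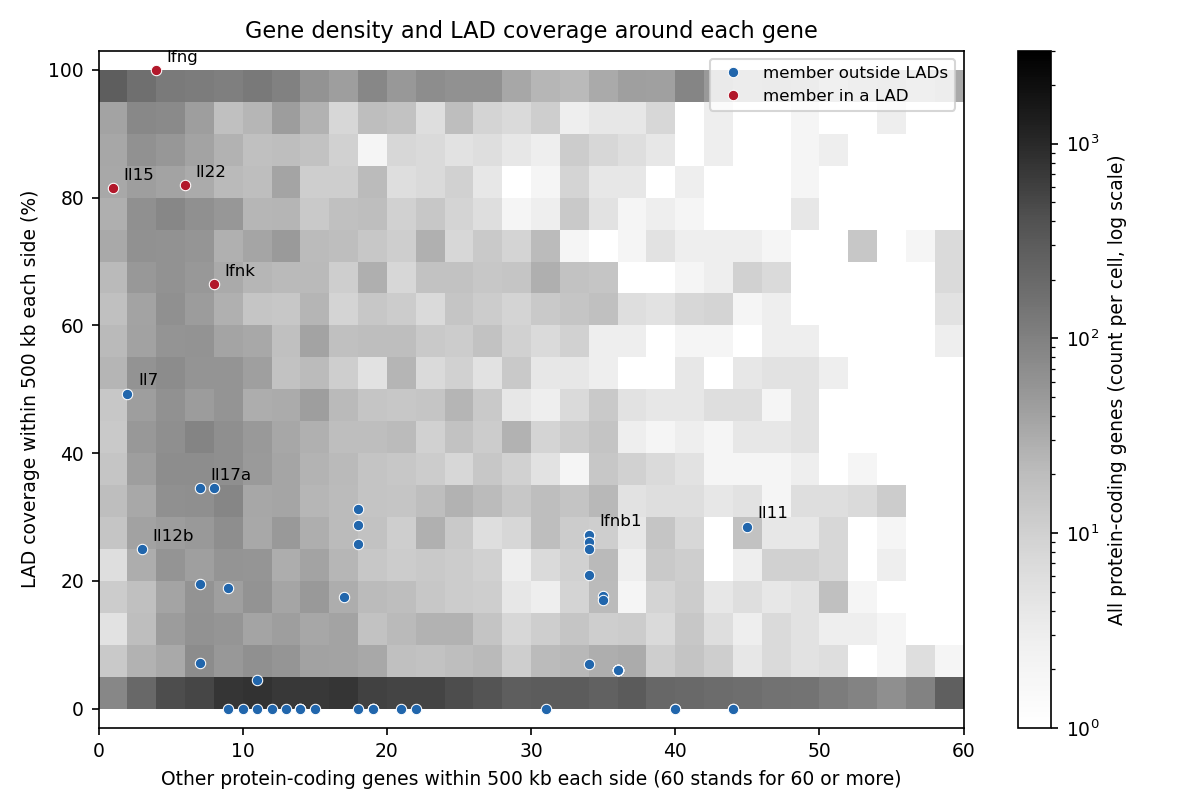
LAD coverage (percent of bases within 500 kb each side of the midpoint) against the number of other protein-coding genes in that window. The 4 members in LADs (red) have 1 to 8 neighbours and coverage of 66.5% to 100%, the 49 members outside (blue) reach at most 49.3%, and grey cells count all protein-coding genes.

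The promoters added a contrast. CpG sites are scarce in the promoters of most genes with restricted expression, while genes active in all cells mostly have many. The windows of the 43 members with a listed start site held a median of 3 CpG sites and 46.0% G or C, against 13 and 56.3% over 17492 protein-coding genes. Genes outside LADs had a median of 17 CpG sites and genes in LADs a median of 2. The median of these 43 members was thus nearer that of LAD genes, although only 3 of the 43 (Ifnk, Ifng and Il22) lay in LADs. Of the 27 members with at most 3 CpG sites, from 14 loci, 1 was in a LAD (Ifnk), or 3.70%. Among all protein-coding genes with so few sites the share in LADs was 58.6%, and 46.4% without olfactory and vomeronasal receptor genes. Of the 16 members with more sites 2 were in LADs (Ifng with 7 sites and Il22 with 4), or 12.5%, against 13.1% of all genes. Il17d, with 19 sites, was the one member above 7. All 12 Ifna windows held at most 2.

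**Figure D5:**
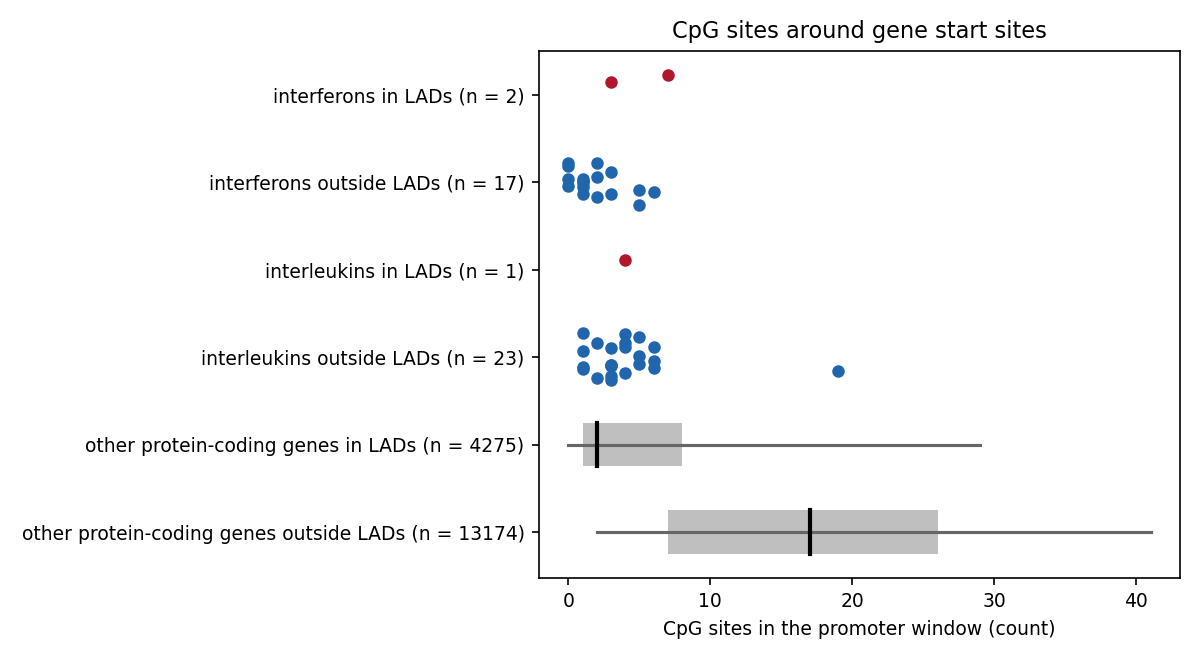
Number of CpG sites in the 300-base promoter window of each member with a listed start site (points, red in LADs and blue outside) and of other protein-coding genes (bar from the first to the third quartile, black line at the median, thin line from the 5th to the 95th percentile). All members but Il17d (19) hold 7 sites or fewer, below the median of 17 of genes outside LADs; the median of genes in LADs is 2.

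The motifs were spread unevenly over the families. The GAAA pair was found in 10 of 12 Ifna windows (83.3%), among them Ifna4, where the matches began 208 and 118 bases before the start site. These windows are near copies at 1 locus and are not independent. Over all 19 interferon windows the count was also 10, so no interferon other than Ifna genes held the pair. The GAAA pair was found in 2 of 24 interleukin windows (Il4 and Il19) and in 3.40% of all 17492 windows. TATAAA was present in 15 of the 43 windows (34.9%), against 13.3% of all, 25.1% for genes in LADs and 9.54% for genes outside. Interleukins held it in 10 of 24 windows (41.7%) and Ifna genes in 2 of 12 (16.7%). TATAAA lay 30 bases before the start site in Ifng, which is in a LAD, and 31 in Il2, which is outside. Ifnb1 held TATAAA at 210 and 82 bases and the GGGA/TTCC pair at 116 bases before the listed start. Among the 43 windows that pair was otherwise found only in Il6, and in 1.45% of all windows. TGACTCA was in 4 members (Il1a, Il6, Il9 and Il16) and in 4.56% of all windows. Ifnk held none of these motifs.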

How the data were processed

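CUT&RUN with antibodies to Lamin B1 (2 libraries), H3K9me2 (2), H3K14ac (1) and IgG (2) was run on mouse embryonic fibroblasts. The file used was 1 merged LAD list in BED format with 1437 rows. The deposited values are start and end positions in base pairs, and the deposited score was 0 in every row. The submitters' processing notes name Bowtie2 and mm10; the domain caller, its threshold and how IgG or the E. coli spike-in DNA, added to Lamin B1 and IgG samples per the labels' protocols, entered the calls are not given in the sources used here. Single libraries were not analysed here, so depth is unknown.

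Positions were converted to count from 1. Gene positions came from the RefSeq table and start sites from the RefSeq promoter table, both GRCm38.p6 (the most upstream start where several are listed; 17492 of 21887 protein-coding genes have one). A gene was in a LAD when its midpoint was. Coverage and neighbours were taken over 500 kb each side. These functions were tested on simulated data. Promoters were aligned globally without end gap penalties. Python 3.11.15, numpy 2.4.6 and pandas 2.3.3 were used. Pathway lists matched 44 of 44 receptors, 38 of 38 signalling and 22 of 24 response genes. Values were given for all LAD members, members outside LADs within 100 kb of a border, the 5 farthest from one and at least 1 of each family (no member had a border inside it, and no locus was divided). The members and lists were chosen with earlier results of these data known. Alternatives changed the gene position (start site, whole gene, any overlap), minimum LAD length, joining, borders and window. No test was made, since no replicate values were used. One signalling gene counted in the pathway lists is not reported here by name.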

Additional observations from a re-analysis of the deposited data

How the results depend on the processing

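The number of interferon and interleukin genes in LADs (4) was 3 with start sites (43 genes listed, Il15 not among them), 3 when counted by locus, 4 without the Ifna genes and 5 with LADs 300 kb or less apart joined. It moved to 8 with 8 relatives of other symbols added. Interleukins in LADs went from 2 to 1 with start sites. The pathway genes in LADs (7 of 104) became 4 of 87 with start sites and 12 with LADs 250 or 300 kb or less apart joined. The share of all protein-coding genes in LADs (23.8%) was 21.8% for whole genes, 25.1% for any overlap, 20.7% with LADs of at least 500 kb, 24.5%, 27.3% and 28.2% with joining at 100, 250 and 300 kb, 22.1% and 25.8% with LADs shortened or extended by 25 kb, 24.6% between the first and last LAD of each chromosome and 19.1% without olfactory and vomeronasal receptor genes. Median coverage around members (6.0%) was 0% in a window of 250 kb, 21.1% in 1 Mb and 0% with LADs of at least 100 kb. Their median of 19 neighbours became 12 and 30 in these windows. Members outside LADs within 100 kb of a border went from 3 to 0 with LADs of at least 100 kb, and the share of all genes so placed from 9.35% to 8.38%. For CpG-poor promoters, the share of all genes in LADs (58.6%) was 46.4% without the receptor families and 51.5% with up to 5 sites, and the members in LADs went from 1 of 27 to 2 of 37. Except where the alternative removes or adds genes or bases, the cause was not tested. Joining at 300 kb, the relatives, the border counts with LADs of at least 100 kb, the genes counted in the background and the CpG comparison were chosen after seeing the data. No paired analysis was possible because only a single set of domains, merged by its name, was analysed, and for that reason no fit without a Lamin B1 library was made. Depth is unknown, so how firm short LADs are is unknown too.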
